A study of Mus musculus with 24 samples.

Results

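The genes described here are 52 genes of the G2 phase and of mitosis, a fixed list of symbols that covers the steps from entry into mitosis to the separation of the daughter cells. The list was chosen with earlier results of these data known. Counts of members set against all genes therefore describe the list and are not independent support. A listed gene counted as a member if 3 or more of the 24 libraries of the series held it at 1 TPM or above. All 52 did, among 12581 genes that did so and 28328 genes in the table. The libraries are poly(A) RNA of LLC1 cells, the line of the mouse Lewis lung carcinoma, a single cell line grown in culture. Cells were harvested 24 h or 6 h after the drugs were added. The combination groups received 2.5 µM cisplatin, 2.5 µM pemetrexed and 10 nM trametinib. The chemotherapy groups received cisplatin and pemetrexed at those doses, and the trametinib groups received trametinib alone at 10 nM. Untreated groups received 0.1% DMSO only. Cisplatin crosslinks DNA, pemetrexed is an antifolate that blocks the synthesis of nucleotides, and trametinib inhibits the MEK kinases of the RAS pathway. Each of the 8 groups held 3 libraries. The labels do not say whether these came from separate cultures. Each p-value rests on the scatter of libraries within their groups, pooled over the 8 groups, and that scatter could be technical alone.

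A cell enters mitosis when cyclin B activates the kinase CDK1, after CDC25 phosphatases have removed the inhibitory phosphates and with PLK1 and the Aurora kinases acting beside them. Kinesins and microtubule-binding proteins then build the spindle, and the spindle checkpoint holds back the anaphase-promoting complex and its activator CDC20 until the kinetochores are attached. That complex marks cyclin B and securin for destruction, separase opens the cohesin rings, and the cell divides. In cycling cells the mRNA of most of these genes is low in G1 and high in G2 and mitosis. Their promoters are known for a cell cycle homology region (CHR), which the MuvB complexes bind, and for CCAAT boxes, which NF-Y binds. With B-MYB and FOXM1 the MuvB core activates these genes, and within the DREAM complex it represses them, as after DNA damage through p53 and p21.

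The promoters are printed because the members share these elements, which the list did not use. Promoter sequence came from RefSeq on GRCm38.p6, 250 bases before to 50 bases after each gene's start, and was found for 43 of the 52 members. The CHR was searched as TTTGAA and as TTCGAA, and the box as CCAAT, each on both strands. TTTGAA was in 30 of the 43 promoters, or 69.8%, against 11.6% of 9150 tested genes with a promoter in the same table. CCAAT was in 34, or 79.1%, against 39.8% of tested genes, and 24 members held it at least 2 times. Both TTTGAA and CCAAT were in 28 member promoters, or 65.1%, against 5.06% of tested genes. TTCGAA was in 4 promoters, those of Cdc25b, Bub1, Bub1b and Top2a. These motifs were matched as letters only, a match is not a bound site, and 1 pair of matches of different motifs overlapped. Below, the 120 bases before the start are given 5′ to 3′ on the gene's own strand, with the matches in capitals, for Cdc20 (chr4:118437344-118437463, − strand), Cdk1 (chr10:69352913-69353032, − strand), Ccnb1 (chr13:100786487-100786606, − strand), Ube2c (chr2:164769809-164769928, + strand), Arhgap19 (chr19:41802085-41802204, − strand) and Sapcd2 (chr2:25371915-25372034, + strand). A match on the other strand reads as TTCAAA or ATTGG.
Cdc20: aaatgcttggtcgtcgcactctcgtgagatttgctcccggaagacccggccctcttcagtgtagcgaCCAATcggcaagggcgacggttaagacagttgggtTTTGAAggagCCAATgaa
Cdk1: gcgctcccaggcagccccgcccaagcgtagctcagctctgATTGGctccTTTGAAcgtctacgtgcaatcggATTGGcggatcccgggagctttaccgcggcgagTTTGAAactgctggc
Ccnb1: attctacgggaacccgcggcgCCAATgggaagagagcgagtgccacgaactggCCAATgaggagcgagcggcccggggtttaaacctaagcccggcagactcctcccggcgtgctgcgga
Ube2c: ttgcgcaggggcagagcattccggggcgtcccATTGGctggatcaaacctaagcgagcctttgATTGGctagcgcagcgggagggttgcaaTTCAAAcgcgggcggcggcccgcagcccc
Arhgap19: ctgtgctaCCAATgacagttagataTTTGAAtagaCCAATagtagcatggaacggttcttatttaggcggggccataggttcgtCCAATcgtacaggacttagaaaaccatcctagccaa
Sapcd2: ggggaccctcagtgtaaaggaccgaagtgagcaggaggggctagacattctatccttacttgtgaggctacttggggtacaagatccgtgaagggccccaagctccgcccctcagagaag
Cdc20 and Ube2c carried 1 TTTGAA and a pair of CCAAT boxes in these bases, Cdk1 carried 2 of each, Arhgap19 carried 3 boxes, with a further one cut by the end of the stretch, and Ccnb1 a pair of boxes and no CHR match. Sapcd2 was among 7 members with none of the motifs in the 300 bases, with Nusap1, Knstrn, Kif18a, Mad2l1, Birc5 and Pttg1. The RefSeq starts of Sapcd2 and Arhgap19 lie upstream of the genes' starts in the annotation used for their levels. Those of Cdc20, Cdk1, Ccnb1 and Ube2c lie downstream, so part of each stretch, and most of that of Ccnb1, lies within the annotated gene.

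**Figure D1:**
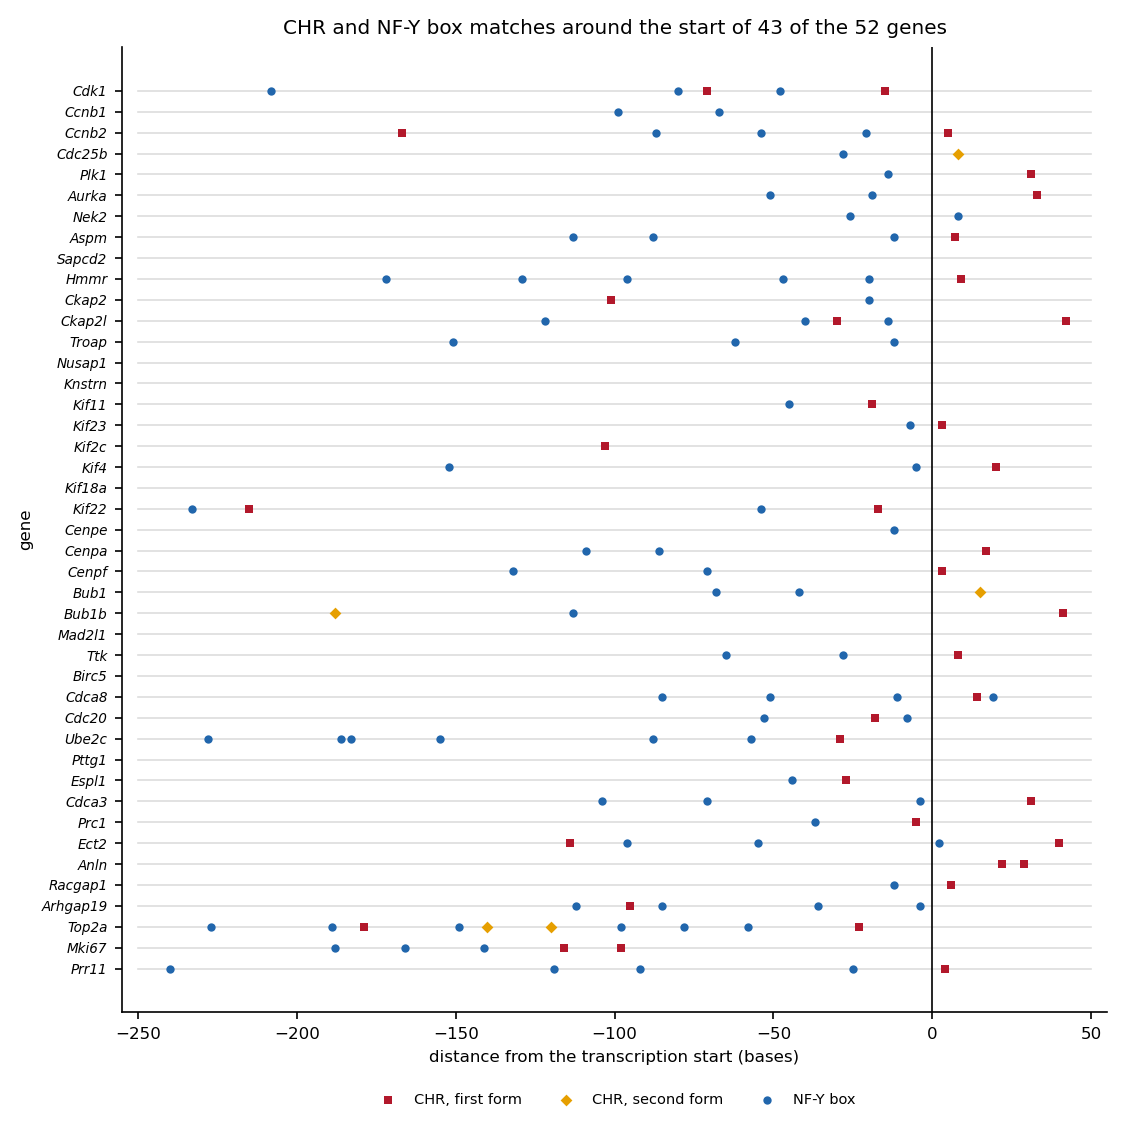
Positions of CHR matches (squares and diamonds) and NF-Y box matches (circles) in the promoters of the 43 members with RefSeq sequence, in bases from the RefSeq start, from 250 before to 50 after. Of 83 box matches in 34 members, 55 lay within the 100 bases before the start. In the same window lay 12 of 38 TTTGAA matches and 0 of 5 TTCGAA matches.

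Levels are in TPM, a length-scaled share of all transcripts in a library, which the authors estimated per transcript and which were summed per gene here. It can be compared between genes, but it keeps no sequencing depth. In every library 11242 to 11851 genes reached 1 TPM, and libraries of one group correlated at 0.982 to 0.994 across genes. The keratins Krt8 and Krt18 stood at 69.9 to 209 TPM and 121 to 361 TPM, and Vim at 3300 to 4480 TPM. Of 17 markers of other cell types, 12 stayed under 1 TPM in every library, the leukocyte gene Ptprc at no more than 0.0121 TPM, while Adgre1 and Cd3e were listed at 0. The other 5, Cd68, Pecam1, Pdgfra, Dcn and Hba-a1, reached 1 TPM in some library, Cd68 at up to 39.3 TPM.

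In untreated cells at 6 h the group means of the members ran from 14.2 TPM for Ttk, a spindle checkpoint kinase, to 375 TPM for Cdk1, with a median of 67.4 TPM. The lowest value of any member in any library was 4.39 TPM, for Sapcd2 in a combination library at 24 h. Summed over the 52 members, the level was 5999, 6075 and 5812 TPM in the combination libraries at 24 h. It was 4382, 4536 and 4332 TPM in chemotherapy, 4531, 4100 and 4482 TPM in trametinib, and 4423, 4474 and 4354 TPM in untreated libraries at 24 h. At 6 h it was 4325, 4173 and 4467 TPM in combination, 3486, 3241 and 3315 TPM in chemotherapy, 5555, 5855 and 5966 TPM in trametinib, and 4628, 4751 and 4668 TPM in untreated libraries. The combination had the highest sums at 24 h, where the other 3 groups overlapped. Trametinib had the highest at 6 h, where all 4 groups stood apart, with chemotherapy the lowest. In bulk libraries fewer cells in G2 or mitosis and less of these mRNAs per cell cannot be told apart.

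**Figure D2:**
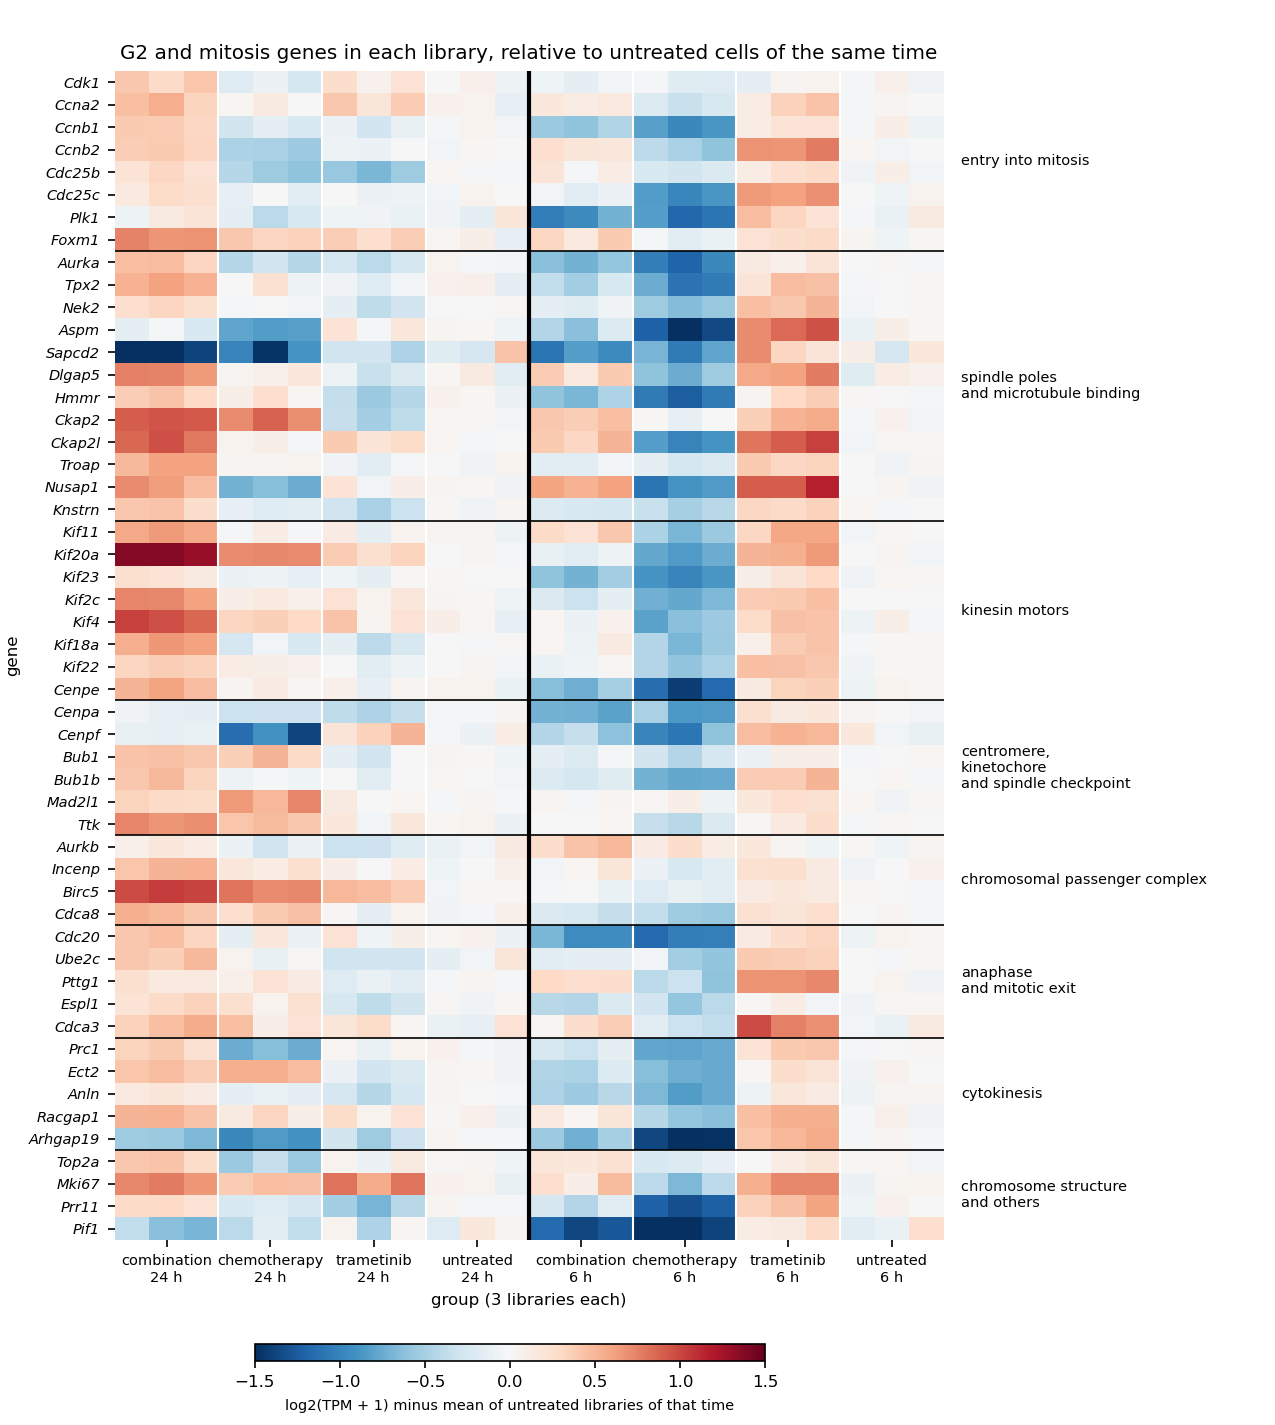
Level of each of the 52 members in each of the 24 libraries, as log2(TPM + 1) minus the mean of the 3 untreated libraries of the same time (red higher, blue lower, colours saturate at the ends of the scale), with members ordered by role. Nearly all members are red in the combination at 24 h and in trametinib at 6 h, and blue in chemotherapy at 6 h.

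Differences below are on the scale of log2(TPM + 1), the condition named first minus the other, with the standard error after ±. The p-values are from limma, adjusted by Benjamini-Hochberg over the 12581 genes, and a gene is said to have risen or fallen where the adjusted p was under 0.05. Genes at low TPM change less on this scale than in TPM. Comparisons at one time share their untreated libraries and are not independent of each other.

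At 24 h the combination held more mRNA of most members than untreated cells. The test called 44 members higher and 3 lower, against 39.6% of all tested genes called higher and 23.8% called lower. The median difference of the members was 0.40, and that of all genes 0.10. Kif20a, the kinesin that carries the passenger complex to the central spindle, rose the most. It had 171, 171 and 162 TPM in combination libraries, against 65, 66.8 and 63.5 TPM in untreated libraries (1.35 ± 0.044, adjusted p = 5.40e-15, or 2.55-fold). Birc5, which encodes survivin, had 269, 281 and 274 TPM in combination and 132, 138 and 137 TPM in untreated libraries (1.01 ± 0.04, adjusted p = 7.24e-14). For both genes every combination library lay above every untreated one. When libraries were rescaled by the median ratio over genes, the counts were 39 higher and 5 lower, with 32.6% and 32% of all genes. That rescaling moved the median of all genes by 0.11 in this comparison and in the same one at 6 h, and by 0.13 in combination against chemotherapy at 6 h. Taken relative to the median of all genes, the members' median here was 0.30 higher.

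Of the 8 genes of entry into mitosis, 7 rose in the combination at 24 h. Ccnb1, cyclin B1, had 304, 302 and 289 TPM in combination and 229, 241 and 226 TPM in untreated libraries (0.36 ± 0.06, adjusted p = 2.94e-05). Cdk1, its kinase, had 378, 348 and 383 TPM in combination and 286, 302 and 271 TPM in untreated libraries (0.37 ± 0.068, adjusted p = 1.02e-04). Foxm1, a transcription factor of these genes, rose by 0.70 ± 0.063 (adjusted p = 9.64e-09) and Ccna2, cyclin A2, by 0.45 ± 0.077 (adjusted p = 4.51e-05). The polo-like kinase gene Plk1 did not pass the test. It had 35.6, 41.4 and 43.2 TPM in combination and 36.1, 34.2 and 42.8 TPM in untreated libraries, which overlap (0.087 ± 0.11, adjusted p = 0.506).

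Of the 12 genes of spindle poles and microtubule binding, 10 rose and 1 fell. Ckap2, a microtubule-stabilising protein, had 145, 148 and 146 TPM in combination and 78.2, 77.5 and 74.3 TPM in untreated libraries (0.93 ± 0.06, adjusted p = 9.14e-11). Its relative Ckap2l rose by 0.87 ± 0.066, Tpx2, the activator of Aurora A, by 0.55 ± 0.098, and Aurka itself by 0.41 ± 0.06. Sapcd2, which takes part in orienting the spindle, went the other way. It had 4.39, 4.59 and 5.14 TPM in combination and 13.2, 12.5 and 20.7 TPM in untreated libraries (−1.50 ± 0.18, adjusted p = 4.37e-07), the lowest of all members in every one of these combination libraries. All 8 kinesins rose. Kif4, a chromosome-bound kinesin, had 51.5, 49.5 and 46 TPM in combination and 26.6, 25.3 and 22.7 TPM in untreated libraries (0.95 ± 0.086, adjusted p = 1.01e-08), Kif11, which slides spindle microtubules apart, rose by 0.59 ± 0.077, and Cenpe, the motor at the kinetochore, by 0.52 ± 0.082.

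Of the 6 genes of the centromere, kinetochore and checkpoint, 4 rose, among them the checkpoint kinase gene Bub1 (0.42 ± 0.074, adjusted p = 5.01e-05). Cenpa, the histone of the centromere, and Cenpf, a large kinetochore protein, were not called (−0.10 ± 0.07, adjusted p = 0.212, and −0.11 ± 0.12, adjusted p = 0.440). Neither was Aspm, a spindle pole protein (−0.13 ± 0.099, adjusted p = 0.263). With rescaled libraries Aspm and Cenpa were called lower, at −0.25 and −0.23. In the passenger complex Aurkb was not called (0.12 ± 0.077, adjusted p = 0.198) while the other 3 subunits rose. All 5 genes of anaphase and mitotic exit rose. Cdc20 had 213, 221 and 202 TPM in combination and 164, 169 and 151 TPM in untreated libraries (0.39 ± 0.087, adjusted p = 6.12e-04), and Ube2c, the ubiquitin-conjugating enzyme of the anaphase-promoting complex, rose by 0.42 ± 0.099 (adjusted p = 0.00102). In cytokinesis Prc1, which bundles the central spindle, rose by 0.32 ± 0.061 and Ect2, the exchange factor for RhoA, by 0.42 ± 0.071, and 4 of 5 rose in all. Arhgap19, a GTPase-activating protein for RhoA, fell to 22, 21.6 and 19.8 TPM in combination, against 33.3, 31.5 and 31.9 TPM in untreated libraries (−0.59 ± 0.07, adjusted p = 4.39e-07). Mki67, which encodes the Ki-67 protein of chromosome surfaces, rose by 0.72 ± 0.094 and the topoisomerase gene Top2a by 0.37 ± 0.065, whereas the helicase gene Pif1 had 9.28, 7.61 and 7.2 TPM in combination and 10.6, 13.8 and 12.7 TPM in untreated libraries (−0.56 ± 0.14, adjusted p = 0.00207).

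**Figure D3:**
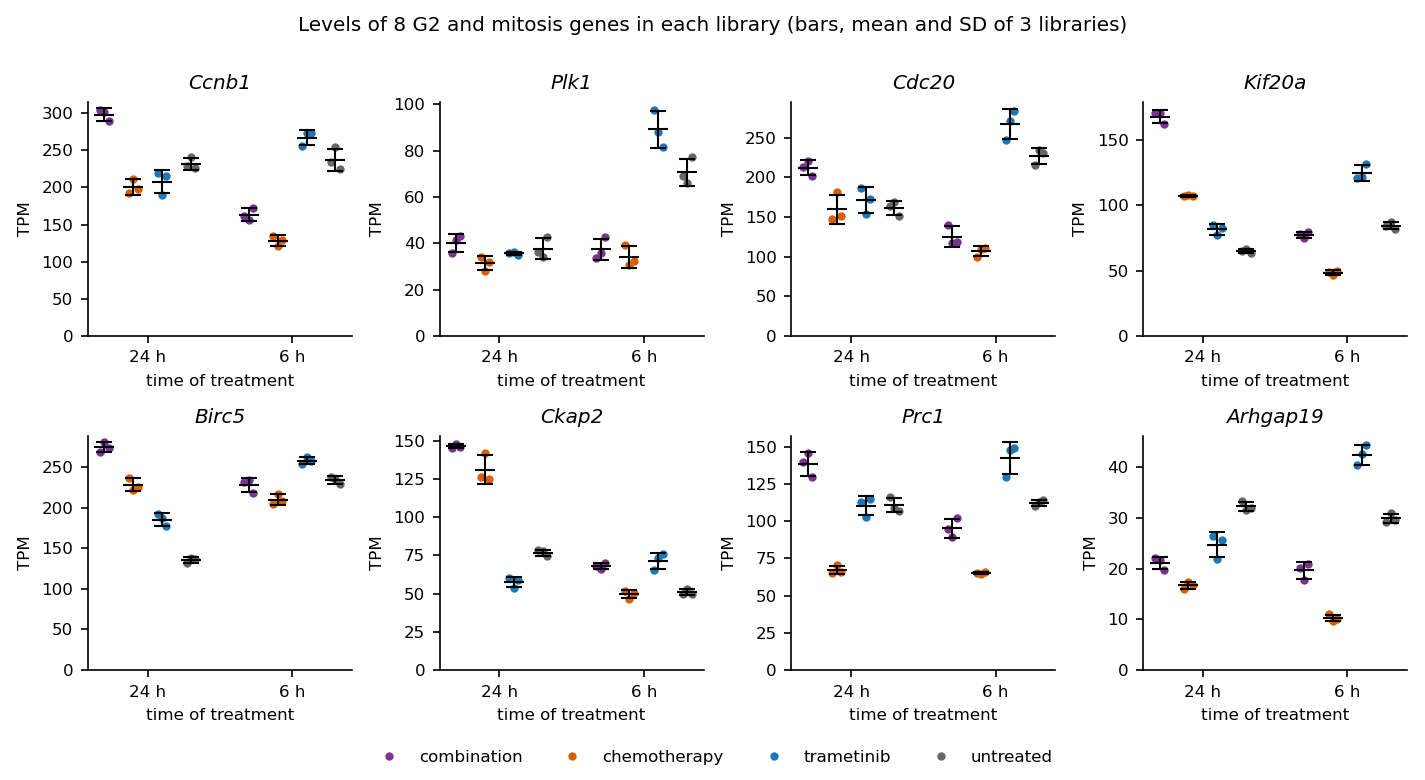
TPM of Ccnb1, Plk1, Cdc20, Kif20a, Birc5, Ckap2, Prc1 and Arhgap19 in each library at 24 h and 6 h (points), with the mean of the 3 libraries and its SD (line and bar), by treatment. At 24 h the 3 combination libraries lie above the other groups for Ccnb1, Cdc20, Kif20a, Birc5, Ckap2 and Prc1, and below untreated for Arhgap19.

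Chemotherapy at 24 h left the members split. The test called 14 higher and 15 lower, or 26.9% and 28.8%, not far from the 34.9% and 24.3% of all tested genes. The median difference was 0.005 and the all-gene median 0.057. With rescaled libraries 11 of the 52 were higher and 24 of the 52 lower, against 30.6% and 30.3% of all genes. The share lower was then above that of all genes and the share higher below it. The rescaled medians were −0.073 over the members and −0.011 over all genes. The genes that rose included Ckap2, which had 126, 142 and 125 TPM in chemotherapy and 78.2, 77.5 and 74.3 TPM in untreated libraries (0.76 ± 0.06, adjusted p = 2.32e-09). Birc5 had 237, 222 and 225 TPM in chemotherapy and 132, 138 and 137 TPM in untreated libraries (0.74 ± 0.04, adjusted p = 1.01e-11). Kif20a rose by 0.71 ± 0.044, Ect2 by 0.51 ± 0.071 and Ttk by 0.43 ± 0.066. Mad2l1, the checkpoint protein that binds CDC20, had 207, 187 and 221 TPM in chemotherapy and 131, 136 and 130 TPM in untreated libraries (0.63 ± 0.055, adjusted p = 1.08e-08), its highest level in any group at 24 h. Smaller rises were found for Foxm1 (0.36 ± 0.063), Bub1 (0.38 ± 0.074) and Mki67 (0.42 ± 0.094).

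The genes that fell under chemotherapy at 24 h included several of the spindle. Prc1 had 65.5, 70.7 and 65.8 TPM in chemotherapy and 116, 109 and 107 TPM in untreated libraries (−0.71 ± 0.061, adjusted p = 7.96e-09). Nusap1, which bundles microtubules near chromosomes, had 33.6, 35.5 and 32.8 TPM in chemotherapy and 57.4, 56.1 and 53.4 TPM in untreated libraries (−0.70 ± 0.079, adjusted p = 3.28e-07). Cenpf had 25.5, 30 and 21.4 TPM in chemotherapy and 56.5, 53.8 and 62.1 TPM in untreated libraries (−1.14 ± 0.12, adjusted p = 1.33e-07). In all 3 genes the groups were well apart. Sapcd2 fell by 1.12, Arhgap19 by 0.91 and Aspm by 0.82, and Top2a fell by 0.48, Aurka by 0.38 and Ccnb1 by 0.21 (−0.21 ± 0.06, adjusted p = 0.00637). Cdc20 was not called (−0.02 ± 0.087, adjusted p = 0.858). Plk1 was at −0.25 ± 0.11 (adjusted p = 0.0522) and passed without untreated replicate 2 (−0.32), without chemotherapy replicate 1 (−0.31) and after rescaling (−0.33).

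Trametinib alone at 24 h also moved members both ways. There were 11 higher and 17 lower, or 21.2% and 32.7%, against 32.4% and 26.3% of all tested genes, with medians of −0.06 and 0.036. The number higher was 7 without untreated replicate 3, trametinib replicate 1 or trametinib replicate 3, and rescaling gave 7 higher and 22 lower, with 30.3% of all genes each way. Trametinib replicate 2 had 14 members above the untreated mean, against 26 and 28 in the other replicates. Mki67 had 118, 98.8 and 117 TPM in trametinib and 69.8, 69.3 and 61.5 TPM in untreated libraries (0.72 ± 0.094, adjusted p = 1.94e-06), a difference close to that in the combination. Birc5 had 192, 187 and 177 TPM in trametinib and 132, 138 and 137 TPM in untreated libraries (0.44 ± 0.04, adjusted p = 1.35e-08). Kif20a rose by 0.32 ± 0.044, Foxm1 by 0.33 ± 0.063 and Ccna2 by 0.32 ± 0.077. Cdc25b, a phosphatase that activates CDK1, fell to 55.7, 51.2 and 57 TPM in trametinib, against 84.4, 82.1 and 82.1 TPM in untreated libraries (−0.59 ± 0.061, adjusted p = 9.24e-08). Ckap2 fell to 60.3, 53.6 and 58.6 TPM in trametinib, against 78.2, 77.5 and 74.3 TPM in untreated libraries (−0.41 ± 0.06, adjusted p = 8.25e-06), while it rose under chemotherapy. Prr11 fell by 0.54, Hmmr, a microtubule-binding receptor for hyaluronan, by 0.45, Cenpa by 0.40, Knstrn, a kinetochore adaptor, by 0.37, Aurka by 0.31 and Aurkb by 0.27. Plk1, Cdc20, Cenpe and Top2a were not called (−0.073 ± 0.11, 0.078 ± 0.087, −0.0012 ± 0.082 and 0.035 ± 0.065).

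**Figure D4:**
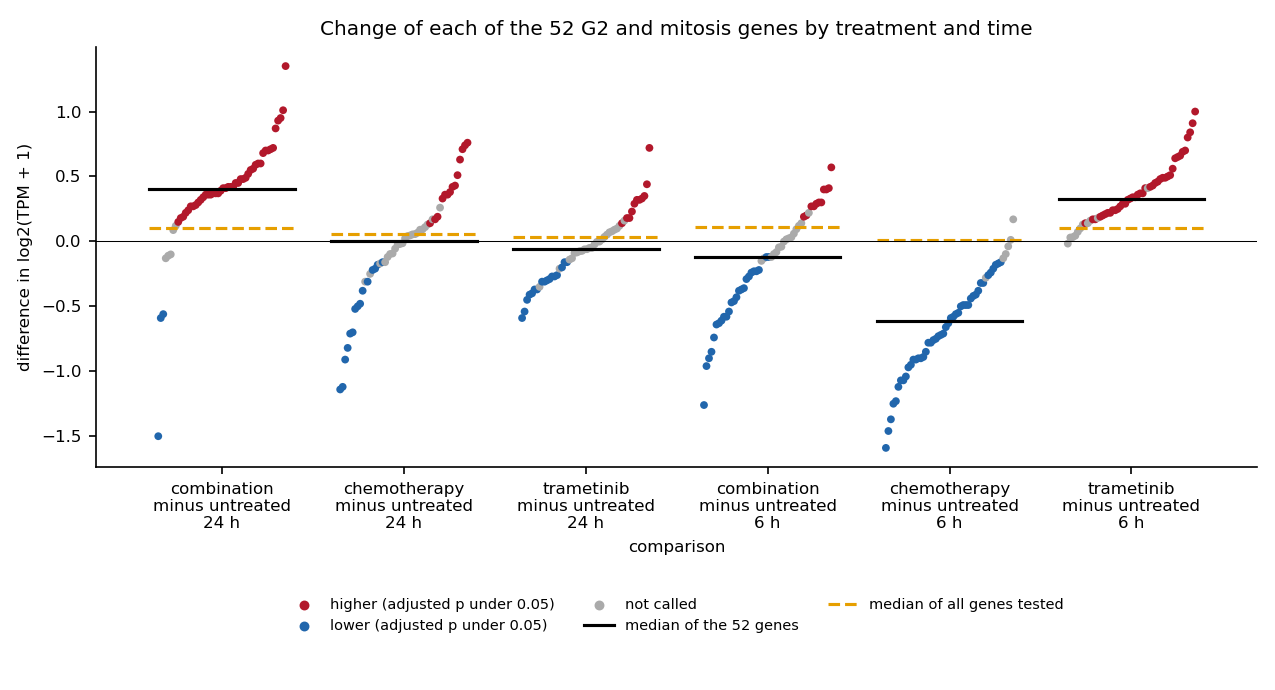
Difference of each of the 52 members from untreated cells in log2(TPM + 1), sorted within each comparison, in the combination, chemotherapy and trametinib at 24 h and 6 h. Red and blue points were called higher and lower at an adjusted p under 0.05, the black line is the members' median and the dashed line that of all genes tested; members spread to both sides of 0 under chemotherapy and trametinib at 24 h, and 44 are red in the combination.

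Set against chemotherapy at 24 h, the combination had 43 members higher and 1 lower, with 30.3% and 23.2% of all tested genes. All 8 genes of entry into mitosis and all 8 kinesins were higher. Nusap1 had 91.5, 86.6 and 77 TPM in combination and 33.6, 35.5 and 32.8 TPM in chemotherapy libraries (1.30 ± 0.079, adjusted p = 8.60e-11). Prc1 had 140, 146 and 130 TPM in combination and 65.5, 70.7 and 65.8 TPM in chemotherapy libraries (1.03 ± 0.061, adjusted p = 5.75e-11). Both are proteins that bundle microtubules, and for both the groups were far apart. Cenpf differed by 1.03 ± 0.12, Ccnb2, cyclin B2, by 0.87 ± 0.049, Top2a by 0.85 ± 0.065, Ccnb1 by 0.57 ± 0.06, Cdc20 by 0.41 ± 0.087 and Ccna2 by 0.39 ± 0.077. Mad2l1 was the one gene called lower, with 167, 162 and 161 TPM in combination and 207, 187 and 221 TPM in chemotherapy libraries (−0.32 ± 0.055, adjusted p = 6.04e-05). Without chemotherapy replicate 2, 2 members were lower, since Sapcd2 (−0.38 ± 0.18, adjusted p = 0.0812) then passed at −0.55.

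Set against trametinib at 24 h, the combination had 44 members higher and 5 lower, with 31.4% and 18% of all tested genes. Ckap2 had 145, 148 and 146 TPM in combination and 60.3, 53.6 and 58.6 TPM in trametinib libraries (1.34 ± 0.06, adjusted p = 2.63e-12). Kif20a had 171, 171 and 162 TPM in combination and 84.8, 77.2 and 82.6 TPM in trametinib libraries (1.03 ± 0.044, adjusted p = 1.07e-12). Dlgap5, which stabilises spindle microtubules, differed by 0.91 ± 0.095 and Kif18a, a kinesin that shortens them, by 0.86 ± 0.087. Ccnb1 was higher by 0.52 ± 0.06, Top2a by 0.33 ± 0.065 and Cdc20 by 0.31 ± 0.087, while Plk1 (0.16 ± 0.11, adjusted p = 0.241) and Ccna2 (0.13 ± 0.077, adjusted p = 0.189) were not called. Sapcd2 was lower by 1.15 on this scale (−1.15 ± 0.18, adjusted p = 2.46e-05) and Cenpf was also lower (−0.47 ± 0.12, adjusted p = 0.00347). The other three calls, Pif1 (−0.44), Aspm (−0.25) and Arhgap19 (−0.21), all ended without trametinib replicate 1 (−0.35, −0.21 and −0.16), trametinib replicate 3 (−0.36, −0.23 and −0.18) or combination replicate 3 (−0.37, −0.20 and −0.17), which left 2 lower. Pif1 also lost its call without combination replicate 2 (−0.41), and Aspm without combination replicate 1 (−0.24).

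The combination at 24 h was also set against the sum of its parts, that is, the change under chemotherapy plus the change under trametinib on the log2 scale. Of the members, 38 lay above that sum and 3 below it, with 16.2% and 15.6% of all tested genes; the median of the members was 0.48 and that of all genes 0.00049. Cdc25b stood farthest above. It had 96, 103 and 96.4 TPM in combination, 61.5, 56.9 and 54.4 TPM in chemotherapy, 55.7, 51.2 and 57 TPM in trametinib and 84.4, 82.1 and 82.1 TPM in untreated libraries (excess 1.36 ± 0.087, adjusted p = 2.34e-09). So it was below untreated with either treatment and above it with both. Aurka was likewise below untreated with either treatment and above it with both, with 115, 116 and 105 TPM in combination, 62, 68.1 and 62 TPM in chemotherapy, 69.5, 63.1 and 69.4 TPM in trametinib and 86.8, 82.7 and 81.3 TPM in untreated libraries (excess 1.10 ± 0.085, adjusted p = 1.87e-08). The excess was 1.21 ± 0.11 for Nusap1, 1.04 ± 0.086 for Prc1, 0.81 ± 0.092 for Top2a and 0.73 ± 0.085 for Ccnb1. It was 0.32 ± 0.063 for Kif20a, which rose under each treatment, and Ccna2 was not called (0.07 ± 0.11, adjusted p = 0.676). Mad2l1 lay below the sum (−0.38 ± 0.078, adjusted p = 0.00107). Mki67 was also below it (−0.43 ± 0.13, adjusted p = 0.0193), a call that ended without untreated replicate 3 (−0.37) or trametinib replicate 1 (−0.38). Birc5 was below it too (−0.18 ± 0.057, adjusted p = 0.0224), a call that ended after rescaling and without replicate 1 of untreated cells (−0.16), chemotherapy (−0.15), trametinib (−0.15) or the combination (−0.16). Without trametinib replicate 1 only 1 member, Mad2l1, lay below the sum.

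**Figure D5:**
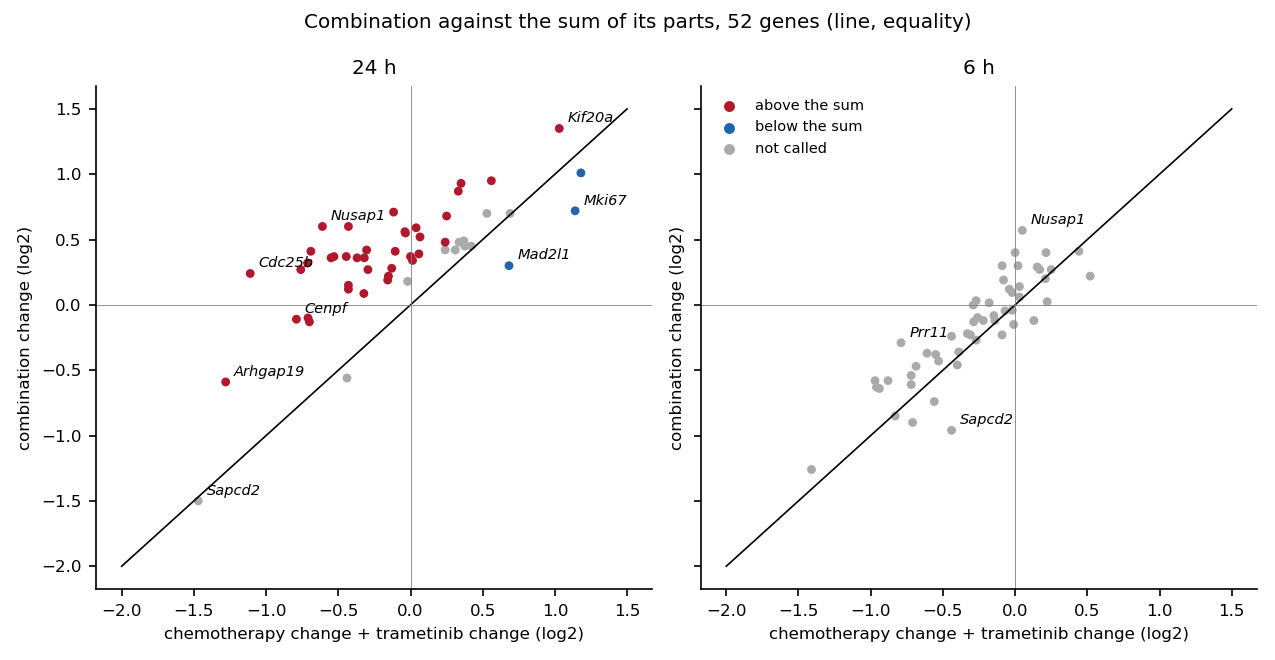
Change of each of the 52 members in the combination (vertical axis) against the sum of its changes under chemotherapy and trametinib (horizontal axis), as log2(TPM + 1) differences from untreated cells, at 24 h and 6 h, with a line of equality. At 24 h 38 members were called above the sum (red) and 3 below it (blue); at 6 h none was called.

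At 6 h chemotherapy lowered the members as a group. The test called 46 lower and none higher, against 13.5% and 11.3% of all tested genes; at an unadjusted p under 0.05 there were 47 lower and 1 higher. The median difference was −0.61, and that of all genes 0.0095. All 8 kinesins, all 5 genes of cytokinesis and 11 of the 12 spindle genes fell. So did all 4 genes of the class of chromosome structure and others, Top2a, Mki67, Prr11 and Pif1. Arhgap19 had 11, 9.7 and 10.1 TPM in chemotherapy and 29.2, 30.9 and 29.6 TPM in untreated libraries (−1.46 ± 0.07, adjusted p = 7.29e-11). Cenpe had 17.8, 14.5 and 17.4 TPM in chemotherapy and 38, 41.7 and 41 TPM in untreated libraries (−1.23 ± 0.082, adjusted p = 3.49e-09). Aurka had 49.5, 44.3 and 52.3 TPM in chemotherapy and 103, 104 and 102 TPM in untreated libraries (−1.07 ± 0.06, adjusted p = 5.28e-10). In each of these genes every chemotherapy library was below the lowest untreated one. Pif1 fell by 1.59, Aspm by 1.37, Prr11 by 1.25, Hmmr by 1.12 and Tpx2 by 0.97.

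Cdc20 had 100, 110 and 111 TPM in chemotherapy at 6 h and 215, 234 and 230 TPM in untreated libraries (−1.07 ± 0.087, adjusted p = 4.12e-08). Plk1 had 39.2, 30.6 and 32.4 TPM in chemotherapy and 68.9, 65.9 and 77.2 TPM in untreated libraries (−1.04 ± 0.11, adjusted p = 1.20e-06). Ccnb1 had 135, 121 and 129 TPM in chemotherapy and 234, 254 and 225 TPM in untreated libraries (−0.89 ± 0.06, adjusted p = 4.62e-09). On the scale of TPM + 1 these 3 genes of the path into and out of mitosis stood at 0.475, 0.488 and 0.541 of the untreated level, whereas Cdk1 was not called (−0.13 ± 0.068, adjusted p = 0.164). Aurkb had 103, 113 and 102 TPM in chemotherapy and 95.6, 90.4 and 97.1 TPM in untreated libraries (0.17 ± 0.077, adjusted p = 0.126), its libraries lying above the untreated ones without passing the test. The other members not called were Foxm1 (−0.097 ± 0.063), Cdca3 (−0.28 ± 0.11, adjusted p = 0.0763), Ckap2 (−0.038 ± 0.06) and Mad2l1 (0.012 ± 0.055). Smaller falls were those of Prc1 (−0.78 ± 0.061), Kif20a (−0.78 ± 0.044), Kif11 (−0.58 ± 0.077), Mki67 (−0.49 ± 0.094) and Bub1 (−0.32 ± 0.074). Of the 46 calls, 39 held in every alternative other than the Bonferroni threshold.

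Trametinib at 6 h raised 41 members and lowered none, against 35.9% and 18.9% of all tested genes; at an unadjusted p under 0.05 there were 45 higher and 0 lower. With rescaled libraries 30 were higher and 0 lower, with 28.7% and 26.2% of all genes. Nusap1 had 61.8, 61.8 and 73.7 TPM in trametinib and 32.6, 33.3 and 31.2 TPM in untreated libraries (1.00 ± 0.079, adjusted p = 3.45e-09). Aspm had 38, 41.9 and 45.3 TPM in trametinib and 21.2, 24.3 and 23 TPM in untreated libraries (0.84 ± 0.099, adjusted p = 6.57e-07). Ccnb2 had 106, 105 and 114 TPM in trametinib and 67.7, 64.5 and 66.4 TPM in untreated libraries (0.70 ± 0.049, adjusted p = 6.64e-10). The groups did not overlap in these genes. Ckap2l rose by 0.91 ± 0.066, Cdca3 by 0.80 ± 0.11, Pttg1, which encodes securin, by 0.69 ± 0.056, Mki67 by 0.66 ± 0.094, Kif20a by 0.56 ± 0.044, Kif11 by 0.49 ± 0.077, Ccna2 by 0.29 ± 0.077 and Foxm1 by 0.25 ± 0.063.

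Several well-known members stood near the threshold under trametinib at 6 h. Plk1 had 97.7, 88.2 and 81.6 TPM in trametinib and 68.9, 65.9 and 77.2 TPM in untreated libraries (0.33 ± 0.11, adjusted p = 0.0147), and its call ended without untreated replicate 2 (0.28), without trametinib replicate 1 (0.26) and after rescaling (0.23). Cdc20 rose by 0.24 ± 0.087 (adjusted p = 0.0264), a call that ended without untreated replicate 1 (0.20), trametinib replicate 2 (0.23) or trametinib replicate 3 (0.19) and after rescaling (0.13). Ccnb1 rose by 0.17 ± 0.06 (adjusted p = 0.0231), a call that ended without untreated replicate 1 (0.16) or 3 (0.13), without trametinib replicate 2 (0.15) or 3 (0.15) and after rescaling (0.066). Cdk1 (−0.017 ± 0.068), Bub1 (0.033 ± 0.074), Aurkb (0.044 ± 0.077), the separase gene Espl1 (0.03 ± 0.075) and Top2a (0.10 ± 0.065) were not called.

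The combination at 6 h lay between its parts. It had 11 members higher and 25 lower than untreated cells, against 38.6% and 19.8% of all tested genes, or 6 and 32 with rescaled libraries, against 30.5% and 29% of all genes. The median of the members was −0.12, or 0.23 below that of all genes. For 47 of the 52 members the combination mean lay above the chemotherapy mean and below the trametinib mean, as it did for 24.8% of all tested genes. Nusap1 had 49.4, 46.9 and 49.6 TPM in combination and 32.6, 33.3 and 31.2 TPM in untreated libraries (0.57 ± 0.079, adjusted p = 3.62e-06). Aurkb had 113, 127 and 134 TPM in combination and 95.6, 90.4 and 97.1 TPM in untreated libraries (0.40 ± 0.077, adjusted p = 1.83e-04). Ckap2 rose by 0.41 ± 0.06, Ckap2l by 0.40 ± 0.066, Kif11 by 0.30 ± 0.077 and Foxm1 by 0.29 ± 0.063. Those 6 are the genes that were still called higher with rescaled libraries. Cdc20 fell to 140, 117 and 118 TPM in combination, against 215, 234 and 230 TPM in untreated libraries (−0.85 ± 0.087, adjusted p = 6.77e-08). Plk1 fell to 33.8, 36 and 42.6 TPM in combination, against 68.9, 65.9 and 77.2 TPM in untreated libraries (−0.90 ± 0.11, adjusted p = 6.76e-07), at or near the level in chemotherapy. Pif1 fell by 1.26, Sapcd2 by 0.96, Cenpa by 0.74, Aurka by 0.64, Cenpe by 0.63, Ccnb1 by 0.54, Ect2 by 0.38 and Prc1 by 0.24. Ccna2 was not called (0.14 ± 0.077, adjusted p = 0.121).

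Against chemotherapy at 6 h the combination had 43 members higher and none lower, with 39.7% and 16.4% of all tested genes; at an unadjusted p under 0.05 there were 45 higher and 0 lower. With rescaled libraries there were 35 higher and 1 lower, with 27.9% and 26.6% of all genes. Nusap1 differed by 1.52 ± 0.079, Ckap2l by 1.31 ± 0.066, Prr11 by 0.97 ± 0.074 and Aspm by 0.95 ± 0.099. Top2a differed by 0.37 ± 0.065, Ccna2 by 0.40 ± 0.077 and Ccnb1 by 0.35 ± 0.06, and Plk1 was not called (0.13 ± 0.11, adjusted p = 0.311). Against trametinib at 6 h it had 1 member higher and 41 lower, with 12.3% and 6.53% of all tested genes. Pif1 (−1.44 ± 0.14), Sapcd2 (−1.37 ± 0.18), Aspm (−1.26 ± 0.099) and Plk1 (−1.23 ± 0.11) were the farthest below, and Cdc20 (−1.09 ± 0.087) and Ccnb1 (−0.71 ± 0.06) were also lower. The gene called higher was Aurkb (0.35 ± 0.077, adjusted p = 0.00295), a call that ended when only the groups compared were fitted. Top2a was not called (0.083 ± 0.065, adjusted p = 0.422).

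No member differed from the sum of the parts at 6 h, where limma called 0 higher and 0 lower, with 0.0874% and 0.00795% of all tested genes. At an unadjusted p under 0.05, 15 members lay above the sum and 2 below it. The median excess was 0.11, against 0.043 for all genes. Nusap1 (0.52 ± 0.11, adjusted p = 0.0699) and Prr11 (0.51 ± 0.1, adjusted p = 0.0684) came nearest. Without trametinib replicate 3 both passed (0.61 and 0.58), and without combination replicate 2 Prr11 did (0.59), as it did after rescaling (0.47). Plk1 (−0.20 ± 0.15), Cdc20 (−0.016 ± 0.12), Ccnb1 (0.18 ± 0.085), Ccna2 (0.11 ± 0.11) and Top2a (0.27 ± 0.092) were not called.

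The effects at the 2 times were compared by a test of the difference itself, the effect at 24 h minus the effect at 6 h. For chemotherapy 43 members had the higher effect at 24 h and 3 the lower, with 28.3% and 16.7% of all tested genes. Kif20a was 1.50 ± 0.063 higher at 24 h in this sense, Cenpe 1.30 ± 0.12, Pif1 1.27 ± 0.2 and Hmmr 1.24 ± 0.12. Cdc20 (1.05 ± 0.12), Plk1 (0.78 ± 0.15) and Ccnb1 (0.68 ± 0.085) were among the others. Top2a (−0.30 ± 0.092, adjusted p = 0.0131) and Cdc25b (−0.28 ± 0.087, adjusted p = 0.0139) went the other way, as did Aurkb (−0.32 ± 0.11, adjusted p = 0.0211), whose call ended without untreated replicate 2 (−0.29) or chemotherapy replicate 2 (−0.27) at 6 h and without untreated replicate 3 (−0.25) or chemotherapy replicate 2 (−0.25) at 24 h. Of all members 11 were lower under chemotherapy at 6 h and higher at 24 h, or 21.2%, against 2.34% of all tested genes, and 14 were lower at both, or 26.9%, against 6.67%. These shares depend on how many genes fell at 6 h. Of the 46 members that fell then, 14 were also lower at 24 h, against 839 of 1693 such genes among all tested. Of the same 46, 11 were higher at 24 h, against 294 of the 1693.

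For trametinib most members went the other way, with 1 member higher and 37 lower at 24 h, against 15.9% and 22.3% of all tested genes. The effect on Prr11 dropped by 1.00 (standard error 0.1), and Nusap1 (−0.91 ± 0.11), Ckap2 (−0.89 ± 0.085) and Arhgap19 (−0.86 ± 0.098) came next, and Ccnb1 was also lower (−0.33 ± 0.085, adjusted p = 0.00495), while Cdc20 was not called (−0.16 ± 0.12, adjusted p = 0.332). Birc5 was the member called higher (0.30 ± 0.057, adjusted p = 2.86e-04). Cdk1 (0.20 ± 0.096, adjusted p = 0.115) joined it without trametinib replicate 2 at 24 h (0.26) and after rescaling (0.26), giving 2 higher. Over both times 12 members were higher under trametinib at 6 h and lower at 24 h, or 23.1%, against 3.6% of all tested genes. Another 10 were higher at both, or 19.2%, against 21.2% of all genes. These shares depend on how many genes rose at 6 h. Of the 41 members that rose then, 10 were also higher at 24 h, against 2673 of 4515 such genes among all tested. Of the same 41, 12 were lower at 24 h, against 453 of the 4515. For the combination 41 members were higher and 1 lower at 24 h, with 25.3% and 24.3% of all tested genes. Kif20a (1.47 ± 0.063), Cdc20 (1.24 ± 0.12), Cenpe (1.15 ± 0.12), Birc5 (1.05 ± 0.057), Plk1 (0.99 ± 0.15) and Ccnb1 (0.90 ± 0.085) were among those higher, and 18 members were lower at 6 h and higher at 24 h than untreated cells, or 34.6%, against 3.47% of all tested genes. Aurkb was the member called lower (−0.28 ± 0.11, adjusted p = 0.0397). That call ended, leaving 0 lower, without untreated replicate 1 (−0.29) or 2 (−0.25) or combination replicate 2 (−0.27) or 3 (−0.22) at 6 h, and without untreated replicate 3 (−0.21) or combination replicate 1 (−0.26) or 3 (−0.27) at 24 h. Without untreated replicate 2 at 24 h, 2 were lower, since Sapcd2 (−0.54 ± 0.25) then passed at −0.67.

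The untreated cells themselves differed between the times, with 16 members higher and 18 lower at 24 h than at 6 h, or 30.8% and 34.6%. These shares are near the 29.4% and 31.4% of all tested genes, and the median was −0.036 over the members and −0.014 over all genes. Nusap1 had 57.4, 56.1 and 53.4 TPM at 24 h and 32.6, 33.3 and 31.2 TPM at 6 h (0.76 ± 0.079, adjusted p = 9.77e-08). Pttg1 (0.71 ± 0.056), Ckap2 (0.58 ± 0.06) and Ccnb2 (0.55 ± 0.049) were higher as well. Birc5 had 132, 138 and 137 TPM in untreated cells at 24 h and 238, 235 and 229 TPM at 6 h (−0.78 ± 0.04, adjusted p = 1.04e-11). Its level in the combination was 269, 281 and 274 TPM at 24 h and 231, 234 and 218 TPM at 6 h, so the effect on Birc5 over time holds a lower untreated level as well as a higher one in the combination. Plk1 had 36.1, 34.2 and 42.8 TPM at 24 h and 68.9, 65.9 and 77.2 TPM at 6 h (−0.89 ± 0.11, adjusted p = 8.42e-07). Plk1 in the combination had 35.6, 41.4 and 43.2 TPM at 24 h and 33.8, 36 and 42.6 TPM at 6 h, which overlap, so the untreated level it was set against is what stood apart between the times. Under chemotherapy Plk1 had 34.1, 28.2 and 32 TPM at 24 h and 39.2, 30.6 and 32.4 TPM at 6 h, which also overlap. Espl1 (−0.57 ± 0.075), Pif1 (−0.55 ± 0.14), Cdc20 (−0.48 ± 0.087) and Ccna2 (−0.35 ± 0.077) were lower at 24 h, and Ccnb1 was not called (−0.035 ± 0.06, adjusted p = 0.641).

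Among the 4 groups of a time the combination mean was the highest at 24 h for 43 of the 52 members, against 24.5% of all tested genes, and for 39 with rescaled libraries. The exceptions were Aspm, Sapcd2, Cenpa, Cenpf, Mad2l1, Ect2, Arhgap19, Mki67 and Pif1. At 6 h it was the highest for 3, Foxm1, Aurkb and Top2a, or 5.77%, against 36.8% of all tested genes.

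Other genes of mitosis that are not members were counted as a list of 67 tested genes in 6 classes. In the combination at 24 h 53 of them rose and 4 fell, or 79.1% and 5.97%, against 39.6% and 23.8% of all tested genes, with 16 of 18 core kinetochore genes higher, led by Mis12 (1.35 ± 0.06, adjusted p = 3.63e-13), and with Ncapg2, a condensin subunit, the largest rise (1.54 ± 0.098). The counts under chemotherapy at 24 h were 40 higher and 9 lower (34.9% and 24.3% of all genes), with Ncapg2 (1.36 ± 0.098) and the cohesin gene Stag1 (−1.01 ± 0.092) at the ends. Under trametinib at 24 h 26 were higher, or 38.8%, not far from the 32.4% of all genes, and 8 lower, or 11.9%, against 26.3%, with Anapc13 (0.96 ± 0.096) and Bora, an activator of Aurora A (−0.81 ± 0.05), at the ends. At 6 h chemotherapy had 13 higher and 18 lower, or 19.4% and 26.9%, against 11.3% and 13.5% of all genes. Cdca5, which encodes sororin, rose (0.56 ± 0.052) and the kinetochore scaffold gene Knl1 fell (−0.83 ± 0.11). Trametinib at 6 h had 38 higher and 5 lower (35.9% and 18.9% of all genes), with Anapc2 (0.78 ± 0.074) and Mybl2, which encodes B-MYB (−0.84 ± 0.075), at the ends. The combination at 6 h had 43 higher and 8 lower (38.6% and 19.8% of all genes), with Cenpk (1.10 ± 0.073) and Bora (−0.83 ± 0.05) at the ends. Against the sum of the parts, 15 lay above and 10 below at 24 h, or 22.4% and 14.9%, near the 16.2% and 15.6% of all genes, and Bora (0.94 ± 0.071) and Fbxo5, an inhibitor of the anaphase-promoting complex (−0.82 ± 0.13), stood at the ends. At 6 h limma called 0 above and 0 below the sum (0.0874% and 0.00795% of all genes).

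Members were also set apart by the first form of the CHR. Under chemotherapy at 6 h the median was −0.71 over the 30 members with TTTGAA and −0.44 over the 13 without, and the ranges were −1.46 to −0.04 with it and −1.23 to 0.01 without. In the combination at 24 h the medians were 0.38 with TTTGAA and 0.37 without, and the ranges −0.59 to 0.95 with it and −1.50 to 1.01 without. These are descriptions of the members with a promoter in the table, and no test was made on them.

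The members sit on many chromosomes and span 4155 bases (Cdca3) to 101478 bases (Kif4), with a median of 21328.5 bases against 20487 bases over the tested genes. In GRCm38 Kif20a (ENSMUSG00000003779.16) lies on chromosome 18 at 34624613 to 34633277 on the + strand, Birc5 (ENSMUSG00000017716.15) on chromosome 11 at 117849251 to 117855743 on the + strand, Ccnb1 (ENSMUSG00000041431.16) on chromosome 13 at 100778650 to 100786570 on the − strand, and Sapcd2 (ENSMUSG00000026955.13) on chromosome 2 at 25372321 to 25378213 on the + strand. Some members share sequence with other genes, which the estimate of transcripts has to divide. This was counted on each gene's leading transcript, the one with the largest part of its TPM. For 19 members no 31-base word of that transcript was found in another gene, and for 10 over 10% of the words were. For Ccnb1 89.5% of the words were in other genes, most often in the pseudogene Ccnb1-ps, which was at no more than 0.454 TPM in any library. That transcript held 42.5% of the TPM of Ccnb1. For Cdc20 the share was 28.7%, most often with Gm7856 at up to 0.132 TPM, and for Plk1 19.2%, most often with Plk-ps1 at 0.201 to 2.32 TPM. It was 29.1% for Prc1, most often with Rccd1, and 23.3% for Kif20a, most often with its neighbour Cdc23, so their levels carry that uncertainty. Kif20a had 2 transcripts. The leading one held 30% of the gene's TPM under chemotherapy at 6 h and 66% under chemotherapy at 24 h. Whether the division of transcripts altered the difference of Kif20a between the times was not tested.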

How the data were processed

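Poly(A) RNA of 24 LLC1 samples was sequenced from stranded libraries, 3 in each of 8 groups taken from the labels. The authors deposited TPM per transcript, 1 column per library; per the submitters' processing notes the tools were bcl2fastq 2.17.1.14 and kallisto 0.45 and the build was GRCm38. TPM keep no read number, so the depth per library and counting intervals are not given. For this work the values of a gene's transcripts were added up by the GENCODE annotation of that build: 79662 of 82934 transcripts matched, and the other 3272 carried 4.45 to 5.98% of the TPM. Genes at 1 TPM or above in 3 or more libraries were tested with limma 3.58.1 (R 4.3.3) on log2(TPM + 1), with 1 mean per group, a trend in the variance and two-sided p-values adjusted by Benjamini-Hochberg; calls were made under 0.05. The design text names a count test with a Bonferroni limit of 0.10; TPM are not counts, so only that limit was tried, as an alternative. The fit was tested on simulated data with known changes. Genes named are fixed key members, the largest changes each way in each comparison, members not called and the first members of each role. Sapcd2 in the combination against chemotherapy at 24 h and in its effect over time, Cdk1 in the effect of trametinib over time, Nusap1 and Prr11 against the sum at 6 h, and the genes plotted one by one were chosen after their values were seen. The members and gene lists were chosen with earlier results of these data known. Alternatives were a pseudocount of 0.1, no filter, median-ratio rescaling, a replicate block, fitting only the groups compared, the Bonferroni limit and leaving out each library. Sequences are from RefSeq (GRCm38.p6). Python 3.11.15, pandas 2.3.3 and matplotlib 3.10.9 were used for tables and figures.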

Additional observations from a re-analysis of the deposited data

Results flagged for a closer look

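The change over time is given here because the effect of each treatment differed between 24 h and 6 h by a test of that difference in limma, adjusted by Benjamini-Hochberg. Under chemotherapy 43 members had a higher effect at 24 h and 3 a lower one, with 28.3% and 16.7% of all tested genes. The differences were 1.50 for Kif20a, 1.30 for Cenpe, 1.27 for Pif1, 1.24 for Hmmr, 1.05 for Cdc20, 0.78 for Plk1 and 0.68 for Ccnb1, and −0.30 for Top2a, −0.28 for Cdc25b and −0.32 for Aurkb. Under trametinib 1 member had a higher effect at 24 h and 37 a lower one, with 15.9% and 22.3% of all tested genes. The effect on Prr11 dropped by 1.00. Other differences were −0.91 for Nusap1, −0.89 for Ckap2, −0.86 for Arhgap19 and −0.33 for Ccnb1, and 0.30 for Birc5. In the combination 41 members had a higher effect at 24 h and 1 a lower one, with 25.3% and 24.3% of all tested genes. Here the differences were 1.47 for Kif20a, 1.24 for Cdc20, 1.15 for Cenpe, 1.05 for Birc5, 0.99 for Plk1 and 0.90 for Ccnb1, and −0.28 for Aurkb. The 3 comparisons share the untreated libraries of both times, in which Birc5 had 132, 138 and 137 TPM at 24 h and 238, 235 and 229 TPM at 6 h. In the same libraries Plk1 had 36.1, 34.2 and 42.8 TPM at 24 h and 68.9, 65.9 and 77.2 TPM at 6 h. Under chemotherapy and in the combination the Plk1 levels at 24 h and 6 h overlapped.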

How the results depend on the processing

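No gene's called difference named in the text changed sign under any alternative, but the members' median under chemotherapy at 24 h was 0.005 and, rescaled, −0.073. The Bonferroni threshold gave fewer calls by more than 1.5 times in most comparisons. At 24 h it left 23 members higher in the combination, 6 higher under chemotherapy, and 3 higher and 4 lower under trametinib. At 6 h it left 2 higher and 11 lower in the combination and 21 higher under trametinib. For the combination against chemotherapy it left 22 higher and 0 lower at 24 h and 26 higher at 6 h. Against trametinib it left 1 lower at 24 h and 0 higher at 6 h, and against the sum at 24 h 17 above and 0 below. For the effect at 24 h minus that at 6 h it left 21 higher and 0 lower in the combination, 28 higher and 0 lower under chemotherapy, and 0 higher and 14 lower under trametinib, and in untreated cells over time 5 higher and 8 lower. Rescaling gave 5 lower in the combination, 24 lower under chemotherapy and 7 higher under trametinib at 24 h, 6 higher in the combination at 6 h, 2 lower at 24 h and 1 lower at 6 h against chemotherapy, 1 above the sum at 6 h, 2 higher over time under trametinib and 0 lower over time in the combination. Fitting only the groups compared gave 7 higher under trametinib at 24 h, 3 lower at 24 h and 0 higher at 6 h in the combination against trametinib. Without the filter the combination had 0 lower over time. For these moved counts, except where rescaling or fewer samples define the alternative, the cause was not tested. Leaving out 1 library at a time gave 7 to 12 higher under trametinib at 24 h, 1 to 2 lower in the combination against chemotherapy at 24 h, 2 to 5 lower against trametinib at 24 h, 1 to 3 below the sum at 24 h, 0 to 2 above it at 6 h, 1 to 2 higher over time under trametinib and 0 to 2 lower over time in the combination. The numbers of the replicates are shared by all groups, but 23 of 84 same-numbered pairs correlated above 0.1 and the median correlation of their deviations was −0.0354. Same-numbered libraries thus did not deviate together in general. That cannot exclude a shared origin, which need not leave such a correlation. Adding a replicate block gave 45 lower under chemotherapy and 42 higher under trametinib at 6 h, moved no count of members by more than 1.5 times, and brought Plk1 under chemotherapy at 24 h past the threshold at −0.25; 6 of 24 libraries correlated best with their own number. Depth is unknown from TPM, so no limit from counting can be given.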
